A study of Homo sapiens with 16 samples.

Results

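The hypoxia response genes are 8 genes that cells switch on when oxygen is scarce: BNIP3, BNIP3L, PDK1, VEGFA, ADM, NDRG1, CA9 and EGLN3. They were chosen by gene symbol, and their RNA is described across 16 human T-ALL lines, grown from acute leukemias of the T-cell lineage (T-cell acute lymphoblastic leukemia). Of the 8 genes, 7 were measured, by 15 probe sets that name only that gene, among 19738 genes on the array. CA9 was not analysed here, because no probe set is listed for it in the annotation used. The lines were ALL-SIL, CCRF-CEM, DU528, HSB-2, JURKAT, KOPT-K1, LOUCY, MOLT-16, MOLT-4, P12-ICHIKAWA, PEER, PF-382, SKW-3, SUP-T11, SUP-T13 and TALL-1. Each was grown for 24 hours in RPMI-1640 medium with 10% fetal bovine serum, and its total RNA was read on 1 Affymetrix U133 Plus 2.0 array. The labels name no treatment and state no oxygen level, so the levels are those of ordinary culture. All lines formed 1 group without a control.

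Hypoxia-inducible factors (HIF) are pairs of an alpha subunit, HIF1A or EPAS1, and the beta subunit ARNT. With oxygen present, EGLN enzymes hydroxylate the alpha subunit, which lets VHL mark it for degradation, so that control acts mainly on the protein and not on its mRNA. When oxygen falls, the factors accumulate and bind short DNA motifs near genes that redirect metabolism, remove mitochondria and call for blood vessels.

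Levels are given as the deposited array intensities, a linear scale whose median over all probe sets and arrays was 42.4. A level above 4 times that median, 169, is called expressed here. SDs, ranges and slopes are on the scale of log2(intensity + 16), which compresses differences among low values. No line was measured more than once, so no value has a replicate error, and an SD is the spread between different lines. Array medians ran from 37.6 to 45.0, and the number of arrays limits the precision. Probe sets differ in sensitivity, so levels of different genes are not set against each other. All 6 T-cell markers checked were expressed in at least 1 line, and CD3G, CD7 and LCK in all 16, while CD3E was at 31.2 in MOLT-16. Of 3 measured B-cell markers MS4A1 and PAX5 were expressed in no line and CD79B in 4 lines, highest in LOUCY (1152). Of 3 myeloid markers CD14 and MPO were expressed in no line and LYZ in DU528 (385), and of 6 endothelial and stromal markers PECAM1 was expressed in 12 lines and VWF, COL1A1, DCN and the other 2 in none. Of 2 erythroid markers ALAS2 was expressed in no line, and the globin gene HBB in LOUCY (279.7) and DU528 (203). Whether these markers bear on the levels below was not tested.

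HIF binds a short core motif, searched here as ACGTG and GCGTG on both strands, which read CACGT and CACGC in reverse. Promoters were available from RefSeq (GRCh38.p14) for 5 of the 8 genes, and the 250 bases before each start were searched. Over all 35116 promoters, 18.5% held ACGTG, 32.2% held GCGTG and 43.2% held either, so the presence of a match sets no gene apart. The 150 bases before the start are shown for BNIP3 and PDK1, the pair that varied together among lines with BNIP3, for ADM, and for EGLN3, with the matches in capitals.
BNIP3, chr10:131981924-131982073, minus strand: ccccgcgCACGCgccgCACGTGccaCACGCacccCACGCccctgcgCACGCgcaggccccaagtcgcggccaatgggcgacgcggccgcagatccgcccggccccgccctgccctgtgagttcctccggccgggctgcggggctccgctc
PDK1, chr2:172555940-172556089, plus strand: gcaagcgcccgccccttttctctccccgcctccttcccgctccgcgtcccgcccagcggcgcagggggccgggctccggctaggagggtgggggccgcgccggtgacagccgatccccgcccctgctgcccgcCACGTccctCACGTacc
ADM, chr11:10304923-10305072, plus strand: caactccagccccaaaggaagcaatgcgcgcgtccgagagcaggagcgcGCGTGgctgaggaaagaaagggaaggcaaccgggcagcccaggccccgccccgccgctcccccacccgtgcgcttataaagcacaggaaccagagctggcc
EGLN3, chr14:33951075-33951224, minus strand: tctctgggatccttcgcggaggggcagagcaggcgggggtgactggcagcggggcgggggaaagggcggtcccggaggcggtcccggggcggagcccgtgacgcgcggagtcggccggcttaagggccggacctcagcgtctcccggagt
BNIP3 held 6 matches in 5 stretches, between positions -143 and -104 from the start. One of these stretches, CACGTG, is a match on both strands and is also the E-box that MYC and its relatives bind. The 250 bases of BNIP3 held 41 CpG pairs, against a median of 11 over all promoters, and 98.3% of promoters had fewer. PDK1 held 2 matches close to this start, at -17 and -8, with 34 CpG pairs, and none before a second listed start. ADM held 1 match at -101 with 16 CpG pairs, and EGLN3 none with 23 CpG pairs. A match is a description of the letters and shows neither binding nor use.

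The 7 measured genes had a median SD between lines of 1.46 log2 units, against 0.41 over the 13295 genes that passed the filter on low values (the 3rd highest line above the table median). An SD above 1 was found for 6 of the 7 (85.7%), against 2365 of 13295 genes (17.8%). The 7 were chosen with earlier results of these data known, so this comparison is a description and no independent test. Part of the spread came with single lines (PDK1, NDRG1) or with the choice of probe set (PDK1, VEGFA), as given below. All 7 passed the filter, EGLN3 with just the 3 lines it requires. The gene with an SD below 1 was BNIP3L. High and low lines differed from gene to gene. In these bulk samples a lower value can mean fewer cells with the transcript or less of it per cell, and the data cannot tell these apart.

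**Figure D1:**
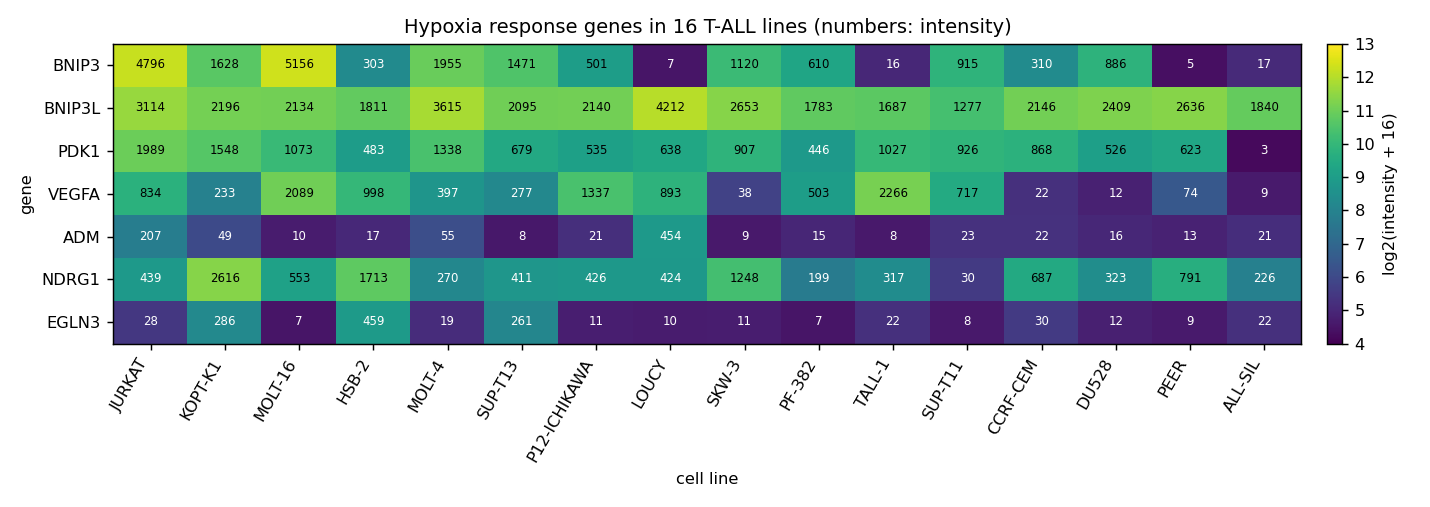
Intensity of the 7 measured hypoxia response genes (rows) in the 16 lines (columns), with colour for log2(intensity + 16) and the intensity printed in each cell; lines are ordered by the mean of the centred values, from JURKAT (1.30) to ALL-SIL (-2.05). Colours are to be read along a row, since probe sets of different genes differ in sensitivity, and each row has its own low lines.

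BNIP3 and BNIP3L encode receptors on the outer mitochondrial membrane that hand mitochondria to autophagosomes, and BNIP3L is also needed to clear mitochondria from maturing red cells. BNIP3 was read at 4.8 in PEER, 7.0 in LOUCY, 15.7 in TALL-1 and 17.5 in ALL-SIL. In the other 12 lines it ran from 303 in HSB-2 to 5156 in MOLT-16, with 310.2 in CCRF-CEM, 501 in P12-ICHIKAWA, 610.4 in PF-382, 886 in DU528, 915 in SUP-T11, 1120.1 in SKW-3, 1471 in SUP-T13, 1628 in KOPT-K1, 1955 in MOLT-4 and 4796 in JURKAT. The 4 low lines thus lay below the table median and the 12 others above 4 times that median, with nothing in between. This gap took 40.9% of the range of 7.96 log2 units. JURKAT and MOLT-16 stood above the rest and close together, and their order turned round in the second BNIP3 probe set. That probe set was low in the same 4 lines, between 3.0 and 13.7, and had r = 0.99 with the first over the 16 lines.

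BNIP3L showed no such gap. It was expressed in all 16 lines, from 1277 in SUP-T11 over a median of 2143 to 4212 in LOUCY, with an SD of 0.43. LOUCY, where BNIP3 was at 7.0, thus held the highest BNIP3L, followed by MOLT-4 (3615) and JURKAT (3114). LOUCY also had the highest level of the erythroid marker HBB, and the part of that marker in the BNIP3L level was not tested. The second BNIP3L probe set was also lowest in SUP-T11 and highest in LOUCY (r = 0.94). Of the 15 steps between neighbouring lines, 11 were smaller than 0.19 log2 units, the largest SD over the arrays among the 18 hybridisation spike probe sets, so most of the order is not resolved. Of the partners of these receptors in autophagy, 7 of 10 measured genes were expressed in all 16 lines. BCL2, which binds BNIP3, ran from 13.9 in SUP-T11 to 4162 in LOUCY. Its relative BCL2L1 ran from 262 in SUP-T11 to 2421 in TALL-1, and the adaptor SQSTM1 from 389 in MOLT-4 to 2988 in DU528. GABARAPL1, of the family that BNIP3 and BNIP3L bind on autophagosomes, was lowest in TALL-1 (9.9) and highest in SUP-T13 (478).

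PDK1 encodes a kinase that inactivates pyruvate dehydrogenase, the enzyme complex that feeds pyruvate into the mitochondria. Its level was 2.9 in ALL-SIL and between 446 (PF-382) and 1989 (JURKAT) in the other 15 lines, with a median of 773 over all 16. A single line made most of its spread, since the range was 2.12 log2 units without ALL-SIL, against 6.73 with it. All 3 PDK1 probe sets were lowest in ALL-SIL. The 2 dimmer probe sets read 9.2 and 21.6 there, and they had r = 0.91 and r = 0.62 with the main one. For the mean of all 3 the range was 3.67. Among the relatives of PDK1, PDK3 was expressed in all 16 lines (545 to 1880) and PDK4 in none. PDK2 was expressed only in SUP-T11 (378). Of the relatives of the other genes, VEGFC was expressed in ALL-SIL (941), LOUCY (473), KOPT-K1 (307) and P12-ICHIKAWA (269.9). NDRG2 ran from 9.0 in ALL-SIL to 239 in SUP-T11, and CA2 reached at most 54.2. All 6 measured genes of the pyruvate dehydrogenase complex, the target of the kinase, were expressed in every line and none had an SD above 1. Of these, PDHA1 was read at 2177 to 3610.4, PDHX at 729 to 2411, DLAT at 592 to 1786 and the phosphatase gene PDP1 at 603 to 2396.

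VEGFA encodes the growth factor that guides new blood vessels. It was expressed in 11 lines, from 233 in KOPT-K1 to 2266 in TALL-1, with 2089 in MOLT-16, 1337 in P12-ICHIKAWA and 998 in HSB-2. The 5 other lines were ALL-SIL at 9.4, DU528 at 12.1, CCRF-CEM at 21.7, SKW-3 at 38.4 and PEER at 74.2. VEGFA was thus low in ALL-SIL and PEER, which had low BNIP3 too, but highest in TALL-1, which also had low BNIP3. The values formed a gradient rather than a gap, with an SD of 2.22 and a range of 6.49 log2 units. The range was 2.83 for the mean of all 4 VEGFA probe sets. The 3 dimmer VEGFA probe sets followed with r = 0.90, 0.73 and 0.45, and 2 of them were highest in TALL-1 as well. Of the 8 receptor genes for VEGFA and ADM, 6 were expressed in no line, among them KDR (at most 71.9) and NRP1 (at most 64.2). FLT1, a VEGFA receptor, reached 350.0 in TALL-1 and was 10.6 in JURKAT. RAMP1, a partner of the receptor for calcitonin gene-related peptide and adrenomedullin, was 2432 in DU528 and at most 111 elsewhere.

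ADM encodes adrenomedullin, a peptide that widens blood vessels. It was expressed only in LOUCY (454) and JURKAT (207). MOLT-4 at 55.4 and KOPT-K1 at 49.2 lay just above the table median, and the other 12 lines below it, between 8.1 and 22.7. Its single probe set cannot be checked against another.

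NDRG1 encodes a cytoplasmic protein induced by stress and differentiation. Its level was 30.2 in SUP-T11 and between 199 (PF-382) and 2616 (KOPT-K1) elsewhere, with 1713 in HSB-2 and 1248 in SKW-3 and a median of 425. SUP-T11 stood apart at the low end and the 3 highest lines at the high end, while the lines from P12-ICHIKAWA (426) to SUP-T13 (411) lay too close for an order without replicates. NDRG1 had 1 probe set. Without SUP-T11 its range was 3.62 log2 units, against 5.83 with it.

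EGLN3 encodes one of the oxygen-sensing hydroxylases that mark HIF alpha subunits for degradation, and HIF itself induces it. It was expressed in 3 lines, with 459 in HSB-2, 286 in KOPT-K1 and 261 in SUP-T13. The other 13 lines lay between 6.6 and 29.8, all below the table median, and the gap took 59.2% of the range. The second EGLN3 probe set was highest in HSB-2 as well and had r = 0.98 with the first. Of the lines with EGLN3, HSB-2 and KOPT-K1 also had the highest NDRG1, but SUP-T13 did not.

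**Figure D2:**
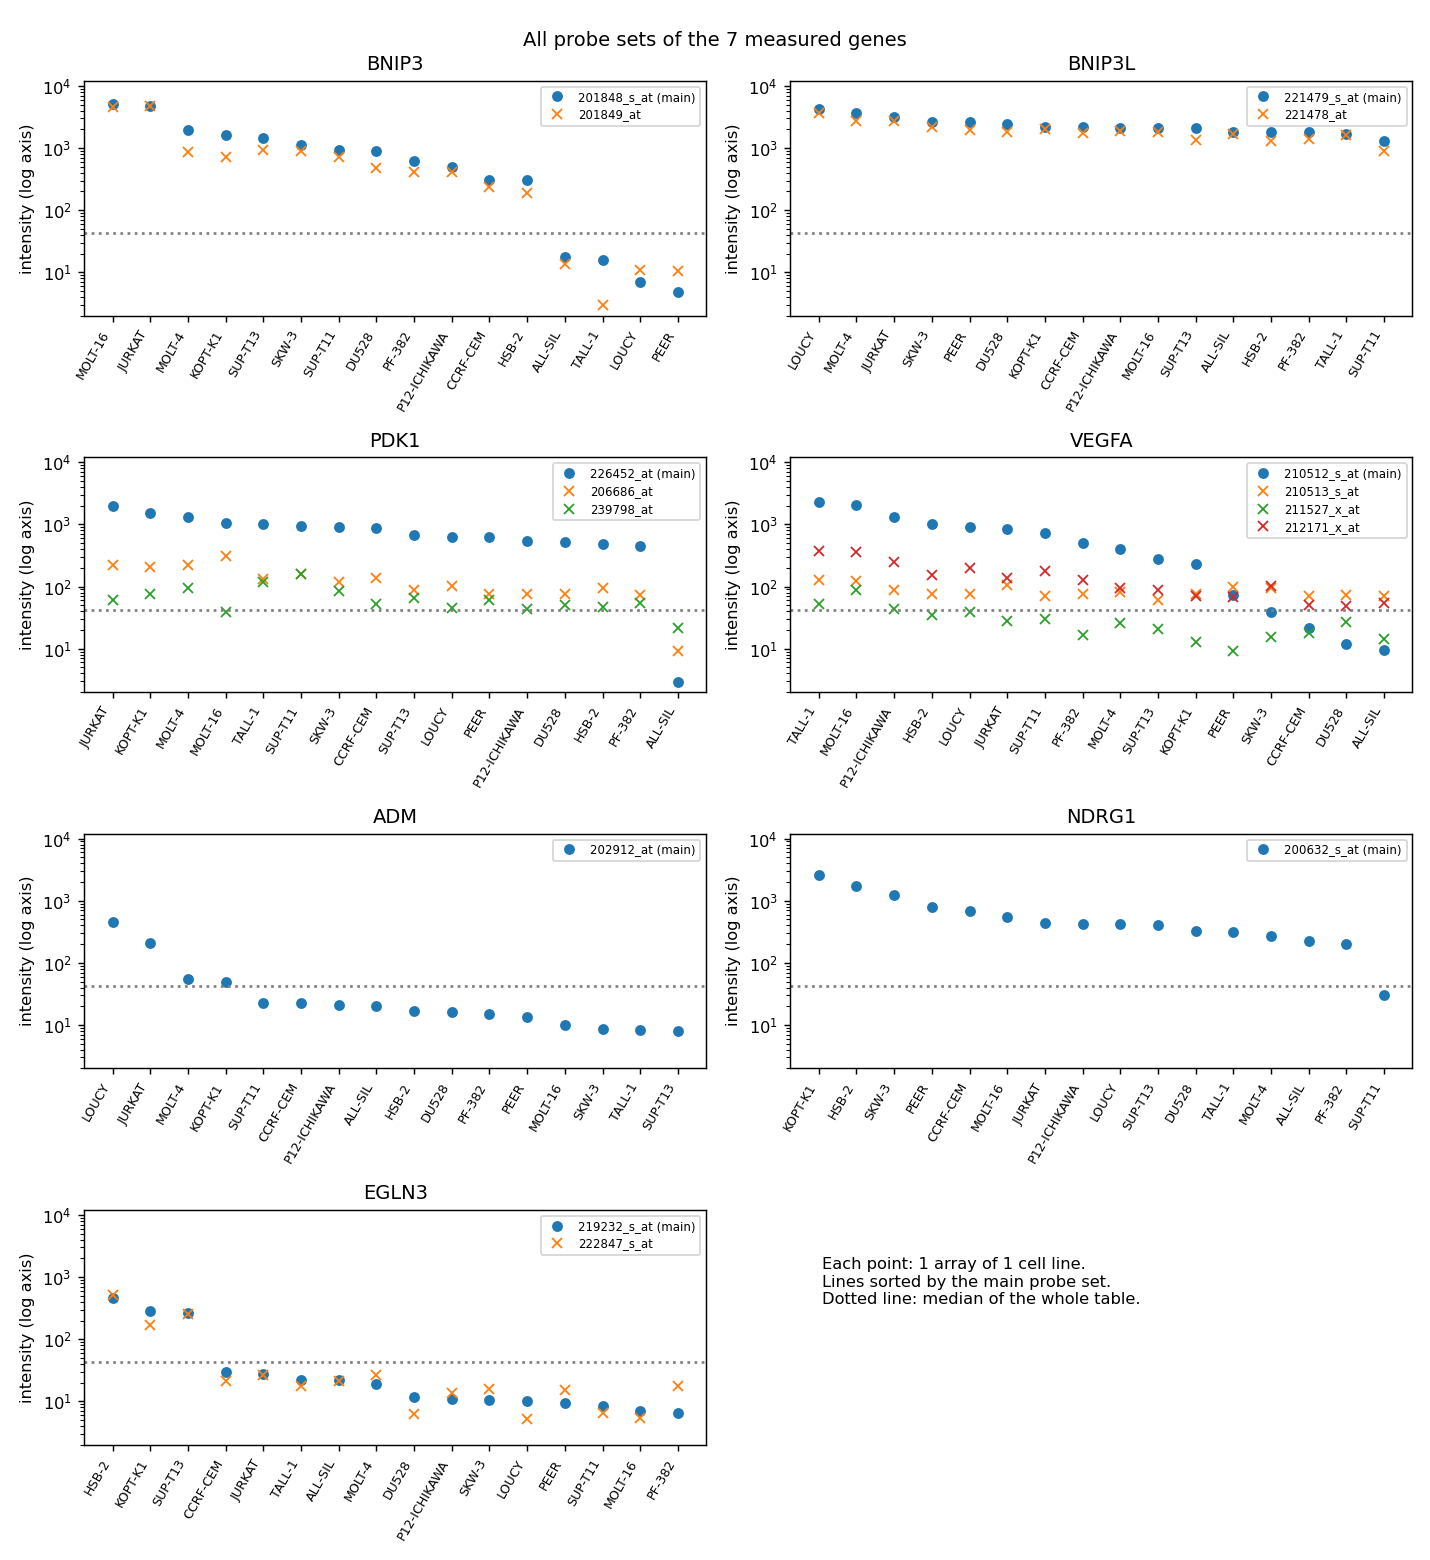
Intensity (log axis) of every probe set of the 7 genes, with 1 point per line and array; circles are the main probe set, crosses the others, lines are sorted by the main probe set and the dotted line is the table median of 42.4. BNIP3 fell below that line in 4 lines and PDK1 in ALL-SIL for the main and the second probe set alike, and EGLN3 rose above it in 3 lines.

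Counted by line, JURKAT, KOPT-K1, HSB-2 and SUP-T13 each expressed 6 of the 7 genes. The gene missing from that count was EGLN3 in JURKAT and ADM in the other 3. ALL-SIL expressed 2, BNIP3L and NDRG1, and PEER 3, BNIP3L, PDK1 and NDRG1. JURKAT lay above a gene's own median for all 7 genes and KOPT-K1 for 6. For JURKAT this includes NDRG1 at 439, against a median of 425, a margin too small to resolve without replicates. It also includes EGLN3 at 28.0, which is below the table median, where values have no meaningful order. No line was lowest or highest throughout: the highest values were spread over 6 lines and the lowest over 5. For BNIP3, VEGFA, ADM and EGLN3, however, the lowest line was picked among values near background. An example is EGLN3, with 6.6 in PF-382 and 6.9 in MOLT-16. The count of lines with a lowest value thus rests partly on an order without meaning. LOUCY was highest for BNIP3L and ADM and nearly without BNIP3.

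Whether the genes varied together was asked with Pearson's r over the lines, given as a description. Because BNIP3 split the lines, its pairs are given only within the 12 lines that expressed it, and EGLN3 with 3 such lines is left out. Of the 10 pairs among BNIP3L, PDK1, VEGFA, ADM and NDRG1 over 16 lines, 1 reached r = 0.5, where 4.22% of all pairs of genes did, and the median r was 0.21, against 0.005 over all pairs. That pair was BNIP3L and ADM (r = 0.68, rho = 0.44), and its r was 0.31 without LOUCY and JURKAT. PDK1 and VEGFA came next (r = 0.45), with 0.06 without ALL-SIL and JURKAT. BNIP3L and NDRG1 had r = 0.32, with 0.01 without SUP-T11 and KOPT-K1 but 0.57 without LOUCY and MOLT-4. The median r of these pairs thus depends on the lines included. Of the 5 pairs with BNIP3 over 12 lines, 1 reached 0.5, where 7.39% of all pairs did in those lines. It was BNIP3 and PDK1, with r = 0.73 and rho = 0.80. Without MOLT-16 and JURKAT, the lines farthest from the median of BNIP3, r was 0.63. BNIP3 and BNIP3L had r = 0.46 in these lines, and 0.43 without MOLT-16 and JURKAT. BNIP3 and ADM had r = 0.44, which turned to -0.19 without JURKAT and MOLT-4. BNIP3 and VEGFA had r = 0.31, which turned to -0.07 without MOLT-16 and JURKAT, and BNIP3 and NDRG1 had -0.05. Taking the ACTB 3'/5' ratio, a measure of RNA integrity, out of both genes left the number of pairs at r = 0.5 or more at 2. The points of each pair share arrays, so array quality is common to both values.

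**Figure D3:**
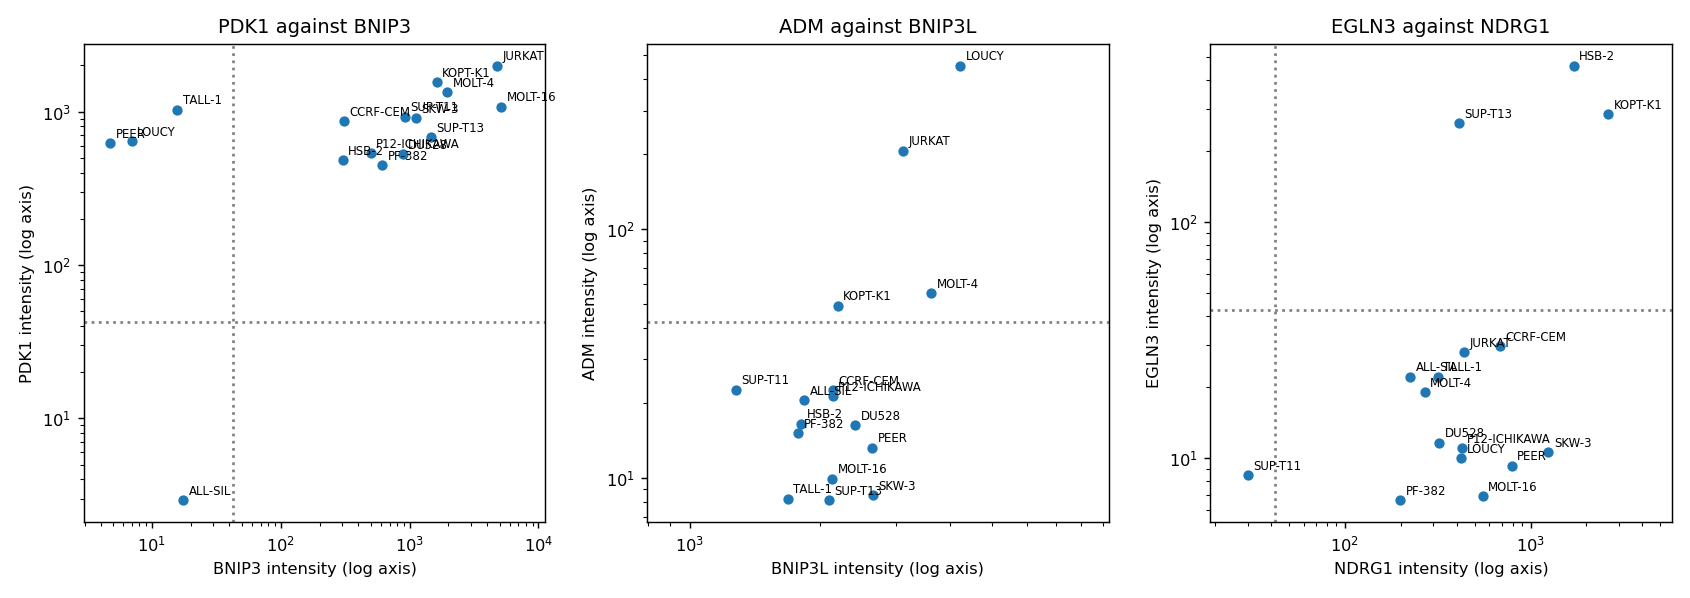
Intensities of PDK1 against BNIP3, ADM against BNIP3L and EGLN3 against NDRG1 (all axes log), with 1 labelled point per line and the table median of 42.4 as dotted lines. Among the 12 lines on the right PDK1 tends to be higher where BNIP3 is higher (r = 0.73), though limma did not call it there. It is at ordinary levels in TALL-1, LOUCY and PEER, which had little BNIP3. ADM is high in LOUCY and JURKAT, and EGLN3 in HSB-2, KOPT-K1 and SUP-T13.

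With each gene tested in limma (trend and robust) against the level of BNIP3 over all 16 lines, 10 of 13294 genes followed BNIP3 at an adjusted p below 0.05 (0.0752%), 5 upward and 5 downward. None of the other 6 hypoxia response genes was among them, and 1480 of all genes had an unadjusted p below 0.05. The nearest was PDK1, with a slope of 0.28 log2 units per log2 unit of BNIP3 (SE 0.12, p = 0.0342, adjusted p = 0.403). Within the 12 lines that expressed BNIP3, limma called 0 of 13294 genes (0%), with 681 at an unadjusted p below 0.05. The slope of PDK1 there was 0.38 (SE 0.11, p = 0.00433, adjusted p = 0.883). Neither slope of PDK1 passed the adjustment.

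HIF1A mRNA was expressed in every line, lowest in SUP-T11 (2597) and highest in SUP-T13 (5988). In limma 0 of 13294 genes followed it (0%; 1431 at an unadjusted p below 0.05), and so none of the 7. EGLN3 had a slope of 1.70 (SE 0.90, adjusted p = 0.529) and BNIP3 one of -2.39 (SE 1.72, adjusted p = 0.667). EPAS1, the other alpha subunit, differed more: it was 4305 in PEER, 4004 in HSB-2, 3108 in LOUCY, 2526 in KOPT-K1, 2504 in SKW-3 and 1115 in SUP-T13, and at most 320.3 (JURKAT) elsewhere, down to 19.1 in MOLT-16. All 3 lines with EGLN3 were among these 6 lines, as were the 4 with the highest NDRG1, KOPT-K1, HSB-2, SKW-3 and PEER. Over the 16 lines EPAS1 and NDRG1 had r = 0.64 and rho = 0.59, with r = 0.62 without KOPT-K1 and SUP-T11. Of 14 HIF regulators that passed the filter, 2 reached r = 0.5 with NDRG1 (14.3%, against 4.93% of all genes). They were EPAS1 and HIF1AN (r = 0.56). Without KOPT-K1 and SUP-T11 the count was 1 (7.14%, against 2.96%). NDRG1 had the highest count of the 6 genes compared. BNIP3L had 1 of 14 (7.14%, against 4.55% of all genes). BNIP3 in its 12 lines, PDK1, VEGFA and ADM had 0, against 4.96%, 3.61%, 2.40% and 2.61% of all genes in that order. PEER, with the highest EPAS1, had BNIP3 at 4.8, so a high EPAS1 mRNA stood beside a BNIP3 level near background.

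Of the enzymes that act on HIF alpha, EGLN1 was 3.0 in TALL-1, 5.7 in LOUCY and 210 in SKW-3, and between 688 and 2316 in the other 13 lines. TALL-1 and LOUCY were thus low in both EGLN1 and BNIP3, but PEER (1217) and ALL-SIL (696) were not low in EGLN1. EGLN2 reached at most 56.4 in any line. VHL lay between 400 and 724, and HIF1AN, which blocks the binding of coactivators, between 421 and 1031. ARNT lay between 158 and 441, and HIF3A and ARNT2 were expressed in no line. CITED2, a HIF target that competes for the same coactivators, was 2040 in DU528, 803 in SUP-T11 and 41.8 in MOLT-16. The remaining subunits of the VHL complex and the coactivators (CUL2, ELOB, ELOC, RBX1, CREBBP and EP300) were expressed in all lines.

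**Figure D4:**
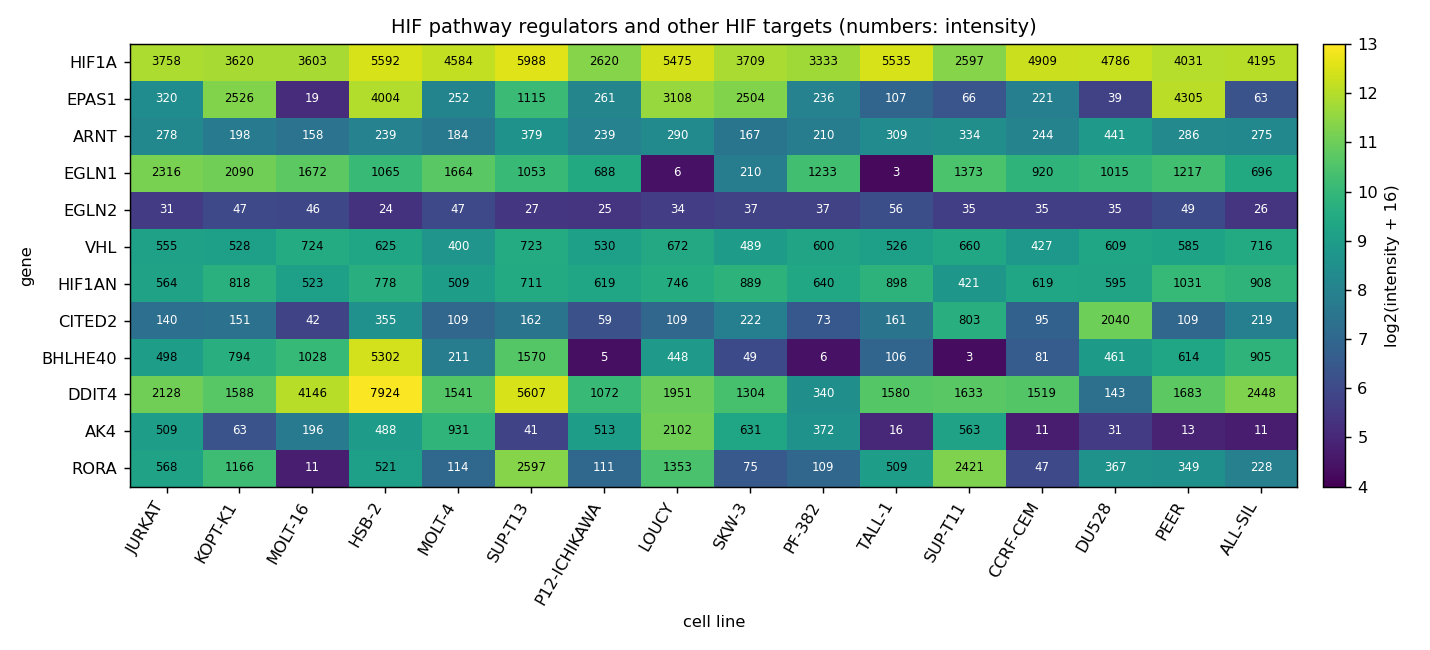
Intensity of HIF pathway regulators (HIF1A to CITED2) and of the 4 other HIF targets with the largest ranges (BHLHE40 to RORA), drawn as for the hypoxia response genes and with the lines in the same order; colour is log2(intensity + 16). HIF1A is high in every column, EPAS1 above 1000 in 6 columns, and EGLN1 near 0 in LOUCY and TALL-1.

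Genes of glycolysis, many of them HIF targets, were asked whether they move with the hypoxia response genes. All 19 measured genes of the list were expressed in at least 1 line and 14 in all 16. In the 12 lines with BNIP3, 7 of 19 (36.8%) reached r = 0.5 with BNIP3, against 4.96% of all genes, with a median r of 0.45 against 0.00. The 7 were HK2 (r = 0.84), GPI, PGK1, PGAM1, PFKFB4, ALDOC and TPI1, the last at 0.50. HK2, the hexokinase that starts glycolysis, was 3289 in MOLT-16 and 2663 in JURKAT and lowest in PEER (658). Without MOLT-16 and JURKAT, 2 of 19 (10.5%) remained at r = 0.5 or more, HK2 (0.58) and GPI (0.56), against 3.87% of all genes, so most of the count came with those lines. With 1 line left out, the count ran from 4 (without JURKAT) to 10 (without HSB-2). In the 4 lines with little BNIP3, ALDOC, an aldolase gene, was below the table median throughout, at most 38.1 (PEER). It was also low in some lines with BNIP3, such as CCRF-CEM (22.8). HK2 lay between 658 and 815 in PEER, TALL-1 and ALL-SIL but was 2436 in LOUCY. Some lines with BNIP3 had HK2 at the same level, such as DU528 (679) and CCRF-CEM (801). Of the other genes of the list with large ranges, the glucose transporter gene SLC2A3 ran from 105 in P12-ICHIKAWA to 1364 in HSB-2. ENO2 ran from 10.2 in DU528 to 1118 in PF-382, and PFKFB4 from 13.5 in SUP-T13 to 849 in SUP-T11.

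BNIP3L had 4 of 19 glycolytic genes at r = 0.5 or more over 16 lines (21.1%, against 4.55% of all genes), PFKP, GAPDH, PGAM1 and LDHA, each of which was lowest in SUP-T11, as BNIP3L was. Without LOUCY and MOLT-4 the number was again 4, against 6.75% of all genes, but it was 2 without SUP-T11 and 7 without PEER. NDRG1 had 3 of 19 (15.8%, against 4.93% of all genes), ADM 2 (10.5%, against 2.61%), PDK1 1 (5.26%, against 3.61%) and VEGFA 0 (against 2.40%). Without the 2 lines farthest from each gene's median, NDRG1 had 1 and ADM, PDK1 and VEGFA had 0. When the mean of the glycolytic list served as the predictor in limma, 0 of 13276 genes were called (0%; 1149 at an unadjusted p below 0.05), and none of the 7. The smallest p of the 7 was that of BNIP3, with a slope of 4.22 (SE 1.64, p = 0.0207, adjusted p = 0.486). PDK1 had a slope of 1.93 (SE 0.99, adjusted p = 0.608) and VEGFA one of 2.13 (SE 1.54, adjusted p = 0.717).

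**Figure D5:**
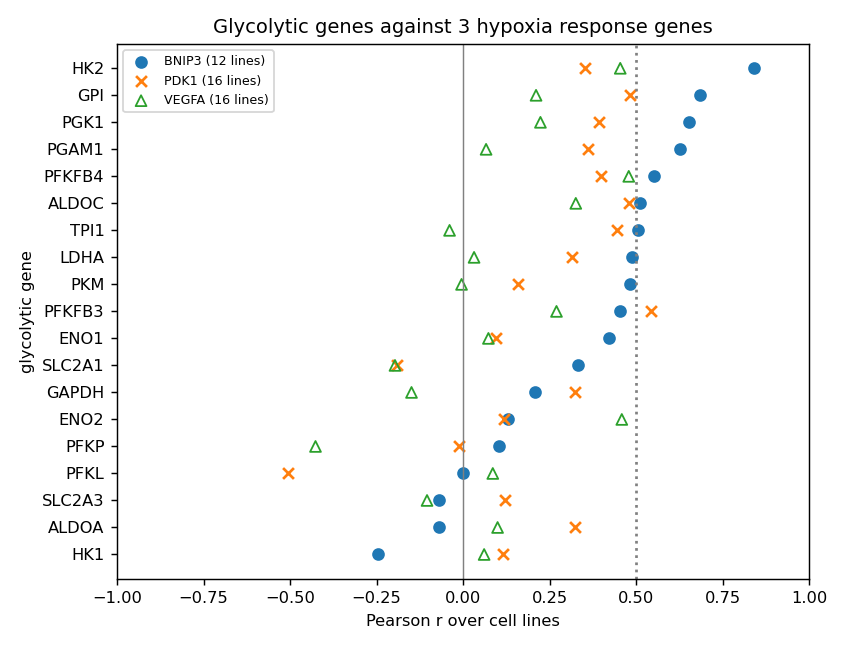
Pearson r of 19 glycolytic genes (rows, sorted) with BNIP3 over the 12 lines that expressed it (filled circles) and with PDK1 (crosses) and VEGFA (open triangles) over 16 lines; the dotted line marks 0.5. With BNIP3 7 genes lie at or above 0.5, with PDK1 1 and with VEGFA none.

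Of 25 measured further HIF targets, 9 were expressed in every line and 8 in none, these 8 including EPO, ANGPTL4, LOX and CA12. BHLHE40, a transcriptional repressor, was 5302 in HSB-2 and 3.5 in SUP-T11. DDIT4, an inhibitor of mTORC1, was also highest in HSB-2 (7924) and lowest in DU528 (143). AK4, a mitochondrial adenylate kinase, was highest in LOUCY (2102) and 10.6 in CCRF-CEM, and RORA, a nuclear receptor, was 2597 in SUP-T13 and 11.1 in MOLT-16. Of the 18 that passed the filter, 5 reached r = 0.5 with BNIP3L (27.8%, against 4.55% of all genes) and 4 with BNIP3 in its 12 lines (22.2%, against 4.96%). Without JURKAT both counts were 3. Without MOLT-16 and JURKAT, the count with BNIP3 was 1 (5.56%, against 3.87% of all genes), and without LOUCY and MOLT-4 that with BNIP3L was 3 (16.7%, against 6.75%). Among the 4 targets with BNIP3, FAM162A, which encodes a mitochondrial protein, had r = 0.80, and 0.65 without MOLT-16 and JURKAT. PDK1, ADM and NDRG1 had 2 such targets each (11.1%, against 3.61%, 2.61% and 4.93% of all genes in that order) and VEGFA had 1 (5.56%, against 2.40%). All 4 of these counts were 0 without the 2 lines farthest from each gene's median. CA12, expressed in no line (at most 78.9), was among the targets counted with BNIP3L, BNIP3 and PDK1.

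ATF4 targets belong to a separate stress response that also answers nutrient shortage. None of the 10 reached r = 0.5 with BNIP3 in its 12 lines or with BNIP3L, PDK1, VEGFA, ADM or NDRG1 over 16. Of all genes 2.40% (VEGFA) to 4.96% (BNIP3) did, so the count of 0 of 10 does not set these targets apart. Their median r ran from -0.30 with BNIP3L, against 0.02 over all genes, to 0.38 with VEGFA, against -0.02. Whether these medians differ from those of all genes was not tested. ASNS (5976), CHAC1 (1053), PSAT1 (10856) and PHGDH (8742) were all highest in MOLT-16, the line with the highest BNIP3. In DU528, ASNS was at 24.4, PSAT1 at 4.9 and PHGDH at 23.5, while CHAC1 was lowest in LOUCY. PSAT1 was also low in LOUCY (8.5), ALL-SIL (10.0) and TALL-1 (14.05), which had little BNIP3. In PEER, which also had little BNIP3, PSAT1 was 2381. Over all 16 lines, across the gap in BNIP3, r with BNIP3 was 0.64 for PSAT1, 0.52 for ASNS and 0.52 for ATF4. The other ATF4 targets had a lower r. The 6 proliferation genes were expressed in every line with no SD above 1: MKI67 had its lowest level, 1288, in JURKAT, MCM5 its lowest, 1894, in SUP-T11, TOP2A 3854 in MOLT-16 and CCNB1 2214 in ALL-SIL. Of these 6, CCNB1 reached r = 0.5 with PDK1 (16.7%, against 3.61% of all genes) and MCM5 with NDRG1 (16.7%, against 4.93%). None did with the other 4.

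The genes most like each hypoxia response gene were named by Pearson r over the 16 lines, which is a description and says nothing of shared control. For BNIP3 these were L3MBTL2 (0.90), TMEM167A (0.89), CTRL (0.86), CHCHD4 (0.85) and HSPA4 (0.85), all highest in MOLT-16. Within the 12 lines with BNIP3, r was 0.66 for L3MBTL2, 0.42 for TMEM167A, 0.59 for CTRL, 0.61 for CHCHD4 and 0.74 for HSPA4. The most opposite were ELF2 (-0.89), an ETS factor gene, and CD109 (-0.88), which ran from 5.7 in MOLT-4 to 2768 in LOUCY. For BNIP3L they were PGM2 (0.90), STAMBPL1 (0.88), STT3B, CAPZA2 and SLC22A16, all highest in LOUCY, with PPP2R5D and GAS6 opposite. For VEGFA they were TUBG2 (0.82), LIPH, PDLIM7, PLXNA1 and MYEOV, with TMEM204 and UBL7-DT opposite. Of the genes named here, CTRL (at most 84.8), GAS6 (103), LIPH (95.6), PDLIM7 (76.9) and MYEOV (82.4) were expressed in no line. Their r thus rests on low values.

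For PDK1 and ADM, likeness came largely with the lines that set them apart. The 5 most like PDK1, HDHD5 (0.95), TMEM168, PIM3, CLCN5 and NT5C3B, were all lowest in ALL-SIL. Without ALL-SIL and JURKAT, r was 0.58 for HDHD5 and 0.05 for PIM3. The 5 most like ADM, CTIF (0.88), PAX2, SMYD3, TNFSF4 and TMEM150C, were all highest in LOUCY, and r was 0.43 for CTIF without LOUCY and JURKAT. CTIF was expressed in no line (at most 97.5). The most opposite to PDK1 were KLHDC3 and ILRUN, and to ADM RPS12 and CKMT2-AS1. The 5 most like NDRG1, HDAC7 (0.91), NQO2, COPB1, MRPL23 and TNFRSF1A, were all lowest in SUP-T11. Without SUP-T11 and KOPT-K1, r was 0.76 for HDAC7, 0.73 for NQO2, 0.65 for TNFRSF1A, 0.50 for COPB1 and 0.32 for MRPL23. The kinase gene MTOR (-0.84) and PAQR7, which was expressed in no line (at most 143), were the most opposite to NDRG1. For EGLN3, which split 3 lines from 13, the 5 were FLT3LG (0.87), FMNL3, CHST15, PCOLCE-AS1 and SAMD3, highest in HSB-2 or SUP-T13, with DMTF1-AS1 and PAAF1 opposite. PCOLCE-AS1 was expressed in no line (at most 117). Without HSB-2 and KOPT-K1 the r of the 5 ran from 0.49 for CHST15 to 0.84 for SAMD3. Only SUP-T13 then still expressed EGLN3, so these values rest largely on 1 line. SAMD3 was highest in SUP-T13 and had rho = 0.30 over the 16 lines.

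RNA integrity was checked with the ACTB 3'/5' ratio of the control probe sets, which ran from 1.44 in DU528 to 2.03 in MOLT-4. In limma 65 of 13294 genes followed that ratio (0.489%), 12 upward and 53 downward, and none of the 7 was among them. BNIP3 came nearest (slope 8.22, SE 3.62, p = 0.0372, adjusted p = 0.312). The 4 lines with little BNIP3 had ratios from 1.45 (LOUCY) to 1.69 (TALL-1). Of the lines with BNIP3, only DU528 (1.44) lay below LOUCY, and every line above TALL-1 expressed BNIP3. The lines with the highest BNIP3 had high ratios, with 1.90 in MOLT-16, 1.94 in JURKAT, 2.03 in MOLT-4 and 1.80 in KOPT-K1. PF-382, with BNIP3 at 610, also had 1.90. With the ratio as a covariate, limma called 15 genes as following BNIP3, none of them a hypoxia response gene, and the slope of PDK1 was 0.28 (SE 0.15, adjusted p = 0.447).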

How the data were processed

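Total RNA of 16 T-ALL lines was measured with 1 array each. The authors deposited linear intensities, 1 per probe set and array, from 0.6 to 24485. How they corrected background and scaled the arrays is not given in the sources used here. No normalization was added. Of 54675 probe sets, 41097 were listed with 1 gene, 1801 with several and 62 were controls. A gene's main probe set is the one of highest mean among those naming that gene alone, and its values were taken as log2(intensity + 16).

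Genes whose 3rd highest value exceeded the table median were tested with limma 3.58.1 (R 4.3.3; trend and robust) for a linear relation to 4 predictors: BNIP3, HIF1A, the mean of the centred glycolytic genes, and the log2 ACTB 3'/5' ratio. Adjusted p-values follow Benjamini and Hochberg over all genes tested. Predictors with a gap of 33.3% of their range and at least 3 lines on each side were also fitted within sets of at least 6 lines. The fits were tested on simulated data of the same size.

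The hypoxia response genes and the lists of other genes were chosen with earlier results of these data known. The text names every hypoxia response gene, all HIF regulators, of each other list the 4 genes with the largest range, any list gene called, and the 5 most and 2 least alike genes per hypoxia response gene. Other names, among them HK2, GPI, FAM162A, PDK3, PDK4, PGK1, PGAM1, TPI1, PFKP, GAPDH, LDHA, EPO, ANGPTL4, LOX and CA12, were chosen after their values were seen. Pairs were first planned as all 21 over 16 lines, of which 3 reached r = 0.5; the restriction to the 12 lines for BNIP3 and the omission of EGLN3 followed the gaps seen in the data. Alternatives changed the pseudocount (1 or 64), normalization, probe set choice, filter, limma options, the lines included, the correlation measure, and the ACTB ratio as a covariate or taken out of both genes; the 12 lines with BNIP3, and single lines left out of the list counts, were added after seeing the data. Other steps used Python 3.11.15 with numpy 2.4.6, pandas 2.3.3 and matplotlib 3.10.9.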

Additional observations from a re-analysis of the deposited data

How the results depend on the processing

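None of the hypoxia response genes was called in any of 112 alternative fits. Few of all genes were called in these fits either, at most 102 of 9726. A count of 0 thus does not set the hypoxia response genes apart. The number of genes following BNIP3, 10 over all lines, was 4 with log2(intensity + 1), 4 with log2(intensity + 64), 5 with centred arrays, 2 when the most variable probe set stood for each gene, 1 without the filter, 5 with limma without trend and robust, and 0 in the 12 lines with BNIP3. Leaving out 1 line gave 0 (without JURKAT) to 15 (without LOUCY). The number following HIF1A, 0 as reported, was 2 with log2(intensity + 64), 2 with centred arrays and 4 with a stricter filter, and 0 to 7 (without MOLT-16) when 1 line was left out. The number following the glycolytic list was 0 to 0 with 1 line left out. The number following the ACTB ratio, 65, was 34 without the filter, 102 with the stricter filter and 10 without the 2 farthest lines, and 0 (without SUP-T13) to 91 (without SKW-3) with 1 line left out. Gene pairs at r = 0.5 or more, 2 as reported, were 1 by rank correlation and 1 (without LOUCY) to 4 (without MOLT-16) with 1 line left out. The cause of these changes was not tested. Of 161 range values of single genes, 10 moved by an SD or more. Besides moves with another pseudocount, which acts on low values, these included the mean of all probe sets, with a range of 2.83 for VEGFA and 3.67 for PDK1. Intensities near background, in the lines where BNIP3, PDK1, VEGFA, ADM or EGLN3 were low, have no meaningful order.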
